A study of Drosophila melanogaster with 8 samples.

Results

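A set of 20 transcripts was described that lay lower in heads of drug-fed flies on day 10, at the end of the drugs, and close to the array median on day 14, after 4 days on normal food. Each was represented by 1 clone, a cDNA printed as 2 neighbouring spots, and the 20 were chosen out of 13824 clones on the array. A clone had to carry 1 annotated gene and to have values on at least 3 arrays of each day. All its day-10 arrays had to lie below 0, its day-10 mean at -0.4 or lower and its day-14 mean at -0.1 or higher. These limits apply to the log2 ratio of treated over control heads after the median of each array was subtracted. Genes named apolpp, Gli and levy were left out. Symbols starting with Cyp, RpL, RpS, mRp, ND-, ATPsyn, COX, Gst or Obp were left out as well. These prefixes mark cytochrome P450, ribosomal protein, respiratory chain, glutathione transferase and odorant-binding protein genes. Genes of such families under other symbols, such as Cyt-c1, stayed in. The choice thus used the values of both days, and the levels given below describe the members without testing them.

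Heads of unmated Oregon-R wild-type males of Drosophila melanogaster were compared on 8 two-colour cDNA arrays, 4 for each day. Treated flies, 3 to 4 days old at the start, were fed 8 mg/ml pentylenetetrazole for 7 days, next 24 mg/ml vigabatrin for 3 days, and were harvested then or after a further 4 days on normal food. Control flies of the same age ate normal food throughout and were harvested on the same day, and each array set a pool of treated heads against a control pool of its own. Both days therefore have separate controls, and vials held 30 flies at the start. Treated RNA carried the dye Cy5 in replicates 1 and 2 of each day and Cy3 in replicates 3 and 4. The deposited ratio was read as Cy5 over Cy3 and turned on replicates 3 and 4. The sources used here do not state that direction, and it is called likely from the order of the channels in the labels. Every sign and order below rests on it. With no array turned, the day-10 means of the members would run from -0.66 to 0.37, and those of prd1, CG12093, Gbs-70E, CG3246 and sima would lie above 0.

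Pentylenetetrazole blocks GABA-gated chloride channels and provokes seizures, and vigabatrin inactivates the transaminase that breaks GABA down. The comparison of both days addresses which transcript differences are still present once both drugs are withdrawn. The members do not belong to one pathway. By known role they include enzymes of glycan assembly, ester and lipid breakdown, glycogen control and eye pigment, a heat-gated ion channel, a tyrosine phosphatase, and regulators of transcription and of small RNAs.

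Between 8419 and 20241 of 27648 spots had a value on an array. The ratio moved with the position on the slide on several arrays, as described further on. As a check of the tissue, 14 of 15 photoreceptor genes on the array had enough values to be tested, against 1 of 11 testis and accessory gland genes. Other lists lay between these, with 8 of 14 neuronal, 10 of 19 glial, 9 of 12 muscle and 6 of 23 midgut genes. In whole heads, fewer cells of a type and less RNA per cell cannot be told apart.

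The selection narrowed in a few steps. Enough values on both days were present for 4563 clones, of which 2771 carried 1 gene and 2653 of those were not left out by symbol. Among these 2653 clones, 347 lay below 0 on all their day-10 arrays, and 117 of them had a day-10 mean of -0.4 or lower. Of the 117, 20 had a day-14 mean of -0.1 or higher and are the members, while 97 remained below it with a median day-14 mean of -0.35. A day-10 mean of -0.4 or lower was found in 5.62% of the 2653 clones, and every member has one by the rule. The members made up 17.1% of the clones that were lower on day 10. A day-14 mean of -0.1 or higher was found in 66.5% of the 2653 clones. The same rule with the sign mirrored, for clones higher on day 10 and at 0.1 or lower on day 14, chose 101 of 151 clones. With the days exchanged, for clones lower on day 14 and at -0.1 or higher on day 10, it chose 29 of 94 clones. The plot of both day means shows the members as the small upper left corner of a cloud whose lower left part extends further down.

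**Figure D1:**
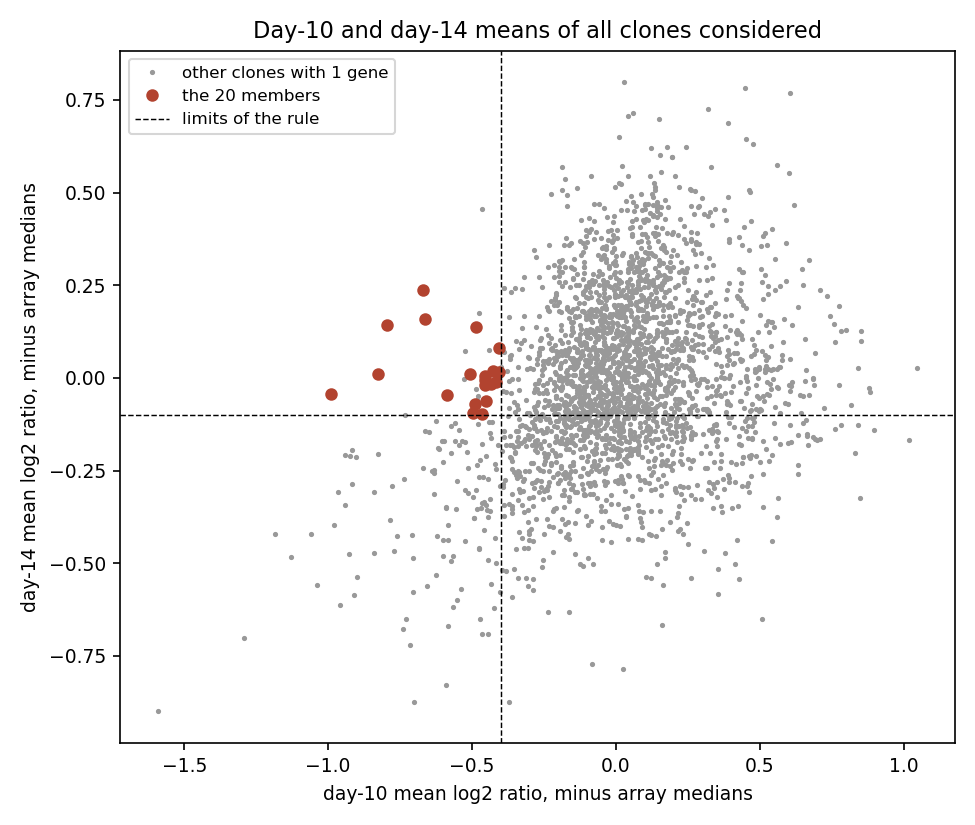
Mean log2 ratio of treated over control heads on day 10 (horizontal) and day 14 (vertical), minus array medians, for 2653 clones with 1 gene. The 20 members (large points) lie left of the day-10 limit of -0.4 and above the day-14 limit of -0.1, and 97 clones that also meet the day-10 limits lie below the day-14 limit.

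The members with known metabolic roles are given first. Alg7 encodes the enzyme that starts N-glycan assembly on its lipid carrier in the endoplasmic reticulum. It lay at -1.01, -0.74 and -1.22 on day-10 replicates 1, 2 and 3, and at 0.29, -0.29, -0.18 and 0.005 on day-14 replicates 1 to 4. No day-14 array reached down to a day-10 array, and both dye orientations of day 10 were low. Its day-10 mean of -0.99 ± 0.24 (SD, n = 3) was the lowest of the 20 and corresponds to a ratio of 0.503, but with no array turned the day-10 mean would be -0.17. The day-14 mean was -0.044 ± 0.25 (SD, n = 4). The difference of 0.95 between the day means was the largest among the members.

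The gene alpha-Est8 encodes a carboxylesterase of the alpha-esterase cluster. Its day-10 values were -1.18, -0.66 and -0.54 on replicates 1, 2 and 3, and its day-14 values 0.33, -0.28, 0.074 and 0.45. The days did not overlap, although day-14 replicate 2 lay well below the other day-14 arrays. The means were -0.80 ± 0.34 (n = 3) and 0.14 ± 0.32 (n = 4). Another esterase of this cluster, alpha-Est3, had -0.043 ± 0.48 (n = 3) on day 10 and 0.045 ± 0.12 (n = 4) on day 14, so its day-10 arrays were spread around 0.

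Lip4 encodes a lipase. It lay at -1.08, -0.37 and -0.005 on day-10 replicates 1, 2 and 3 and at -0.18, 0.31 and 0.29 on day-14 replicates 2, 3 and 4. Only 1 day-10 array was far below 0, replicate 3 was at it, and the days overlapped. A lipase gene of the same name series, Lip1, had -0.16 ± 0.066 (n = 3) and 0.12 ± 0.20 (n = 4) on these days. Had1, a beta-hydroxy acid dehydrogenase gene, was among the steadiest members, at -0.58, -0.34 and -0.44 on day-10 replicates 1, 2 and 3. On day-14 replicates 2, 3 and 4 it lay at -0.025, -0.044 and -0.12. All its day-14 arrays were still slightly below 0 but above every day-10 array.

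Gbs-70E encodes a subunit that directs protein phosphatase 1 to glycogen. Its 4 day-10 values were -0.21, -0.16, -0.84 and -0.60 in order of replicate, and its day-14 values 0.28, -0.17 and -0.088 on replicates 1, 3 and 4. The decrease on day 10 was larger where treated RNA carried Cy3 (mean -0.72) than where it carried Cy5 (mean -0.19). Its relative Gbs-76A had 0.12 ± 0.30 (n = 4) on day 10 and -0.42 ± 0.69 (n = 4) on day 14. The gene cl (clot) is needed for the red pteridine eye pigments and encodes a thioredoxin-like protein. It lay at -0.50, -0.66 and -0.36 on day-10 replicates 1, 2 and 4 and at -0.19, 0.11 and 0.11 on day-14 replicates 2, 3 and 4. Pu, pr and se, which act in the same pigment pathway, had day-10 means of -0.15, 0.23 and 0.028, none of them at the limit of -0.4.

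Among genes of signalling, pyx encodes pyrexia, a TRP cation channel opened by heat. It was measured on all day-10 arrays, at -1.01, -0.66, -0.35 and -0.33 in order of replicate, and on day-14 replicates 2, 3 and 4 at -0.39, 0.12 and 0.14. Both Cy5 arrays of day 10 were lower than both Cy3 arrays, and the lowest day-14 array fell within the day-10 range. The phototransduction channel genes trp and trpl had -0.29 ± 0.33 (n = 3) and -0.11 ± 0.75 (n = 4) on day 10. Ptp36E encodes a protein tyrosine phosphatase and had the highest day-14 mean of the members, 0.24 ± 0.14 (n = 3), which would be 0.026 with no array turned. Its values were -1.25, -0.73 and -0.020 on day-10 replicates 1, 2 and 3, and 0.39, 0.18 and 0.14 on day-14 replicates 1, 3 and 4. It was the one member with every day-14 array above 0, a pattern found in 15.9% of the 2653 clones, and its low day-10 mean came from replicates 1 and 2.

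Regulators of gene expression are given next. The gene svp encodes seven-up, a nuclear receptor that directs photoreceptor and neuroblast fates. It lay at -0.77, -0.59 and -0.034 on day-10 replicates 1, 2 and 3 and at 0.22, 0.018 and -0.53 on day-14 replicates 1, 2 and 3. The dye-swapped array was the highest on day 10 and the lowest on day 14, and the days overlapped widely. The gene sima encodes the fly homologue of the hypoxia-inducible factor alpha subunit. It had -0.42, -0.59 and -0.22 on day-10 replicates 2, 3 and 4, and 0.35, -0.13, 0.040 and -0.19 on day 14. Boot (bootlegger) takes part in the handling of piRNA precursors in the germ line. On day-10 replicates 1, 2 and 4 it lay at -0.52, -0.55 and -0.21, and on day 14 at -0.12, -0.007, 0.026 and 0.17. The days did not overlap for sima or Boot, by margins of 0.030 and 0.096.

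The other 9 members are given without a role. CG15120 lay at -0.84, -1.13 and -0.018 on day-10 replicates 1, 2 and 3 and at 0.98, -0.38 and -0.12 on day-14 replicates 1, 3 and 4. Its day-14 mean of 0.16 ± 0.73 (n = 3) thus came from 1 high array, and the other two lay below 0. The gene prd1 had -0.68, -0.066 and -1.73 on day-10 replicates 1, 3 and 4, and -0.057, 0.047, 0.032 and 0.020 on day 14. Its day-14 arrays were the tightest among the members (SD 0.046) and its day-10 arrays the widest (SD 0.84).

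CG31287 and CG3246 were measured on all 8 arrays, the only members of which that is true. CG31287 had -0.67, -0.36, -0.46 and -0.49 on day 10 and -0.46, -0.17, 0.17 and 0.071 on day 14. CG3246 had -0.60, -0.30, -0.32 and -0.60 on day 10 and -0.14, -0.27, 0.095 and 0.24 on day 14. In both genes all 4 day-10 arrays lay clearly below 0, and on day 14 the Cy5 arrays lay below 0 and the Cy3 arrays above it.

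CG5776, CG12093, CG10962, CG32652 and CG5323 had day-10 means between -0.49 and -0.41. The widest of them was CG5776, at -0.57, -0.88 and -0.025 on day-10 replicates 1, 2 and 4. On day 14 it lay at -0.28, -0.41, 0.46 and -0.053, again with the Cy5 arrays low. CG12093 was lowest in the dye-swapped array of day 10, at -0.92, against -0.13 and -0.32 on replicates 1 and 2. CG10962 did not overlap between days, with day-10 values from -0.60 to -0.26 and day-14 values from -0.14 to 0.19. CG32652 and CG5323 overlapped, with day-10 values up to -0.17 and -0.12 and day-14 values down to -0.22 and -0.29.

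Across the members, the day-10 means ran from -0.99 to -0.41 with a median of -0.48, and the day-14 means from -0.097 to 0.24 with a median of 0. The median SD among the arrays of a day was 0.29 on day 10 and 0.24 on day 14. For 10 of the 20 members every day-14 array lay above every day-10 array, against 3.88% of the 2653 clones, but the rule itself drives the days apart and nothing is read from that count. In 14 members the mean of the Cy5 arrays of day 10 was lower than that of the Cy3 arrays. The median over the members was -0.67 and -0.55 on day-10 replicates 1 and 2, and -0.37 and -0.42 on replicates 3 and 4. In 6 members 1 day-10 array lay between -0.1 and 0. The plot of all values by array shows both features.

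**Figure D2:**
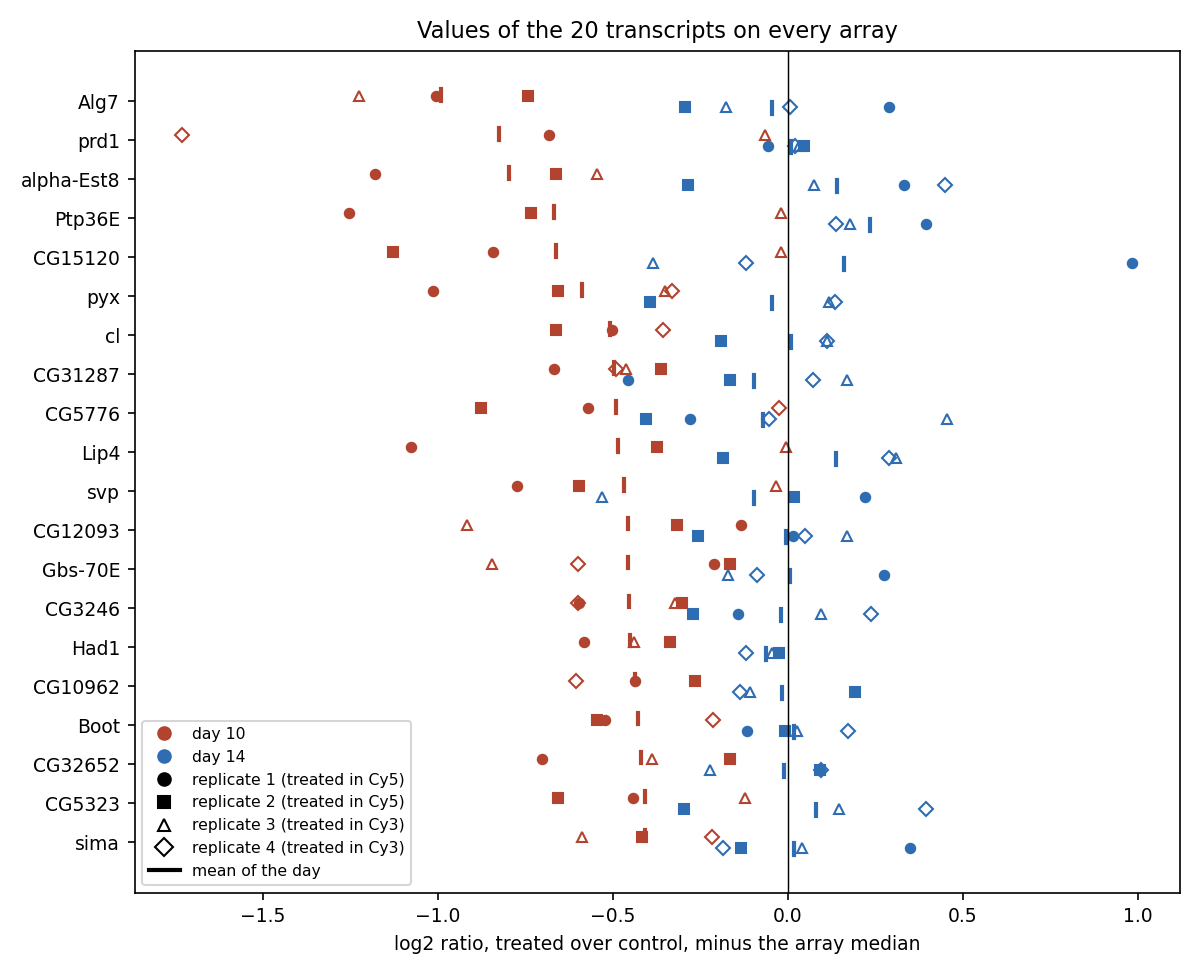
Log2 ratio of treated over control heads minus the array median (horizontal) for the 20 members (rows) on every array with a value. Day 10 is red and day 14 blue, symbols mark replicates (filled with treated RNA in Cy5, open in Cy3) and vertical bars the day means, and day-10 values spread from -1.73 to -0.005 while day-14 values lie on both sides of 0.

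Missing values were common in the set. Of the 20 members, 4 had values on all 4 day-10 arrays (20%), against 54.2% of the 2653 clones and 62.9% of the 97 clones that stayed below the day-14 limit. Day-10 replicate 4 was missing for 10 members. Both spots were read for all 133 member values. The median gap between both spots was 0.18, against 0.15 over the 2653 clones. In 55 of 64 day-10 values both spots lay below 0. The rule already asked for a mean of both spots below 0 there, so nothing is read from that count. The widest gap belonged to prd1 on day-10 replicate 4, where 1 spot read -3.22 and the other -0.24. Read on the second spot alone, prd1 had a day-10 mean of -0.19 and no longer met the rule. On the first spots alone 11 of the 20 members met the rule, on the second spots alone 13 did, and 5 did on each (Alg7, alpha-Est8, pyx, cl and Gbs-70E). Members and other clones together, the rule chose 26 clones on the first spots alone and 26 on the second spots alone. Both spots also entered the choice of the members, so nothing is read from these counts.

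The closeness to the limits was considered next, without a test. Just inside the day-10 limit were sima and CG5323 (each -0.407) and CG32652 (-0.418), and just outside it were Echs1 (-0.399), Inx2 (-0.39) and Vps16A (-0.38). On the day-14 limit, svp (-0.097), CG31287 (-0.095) and CG5776 (-0.071) were inside, and retm (-0.12), mino (-0.12) and Mpc1 (-0.12) outside. A day-10 array at or above 0 kept out 10 clones that met both limits on the means, the nearest to 0 being Lsd-2, Mec2 and rdhB, with highest arrays at 0.012, 0.015 and 0.043. Lip4, CG15120 and Ptp36E were inside with highest day-10 arrays at -0.005, -0.018 and -0.020.

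A fit across all 4563 clones with limma, a linear model with moderated variances, placed the set against the whole array. After array-median centring 5 of the 20 members passed as lower on day 10 at an adjusted p of 0.05, against 2.19% of all clones as lower and 3.02% in either direction. They were Alg7, alpha-Est8, pyx, CG31287 and Gbs-70E. Because the rule used this contrast, nothing is read from that count. As deposited, without centring, 17 of 20 passed, against 13.6% of all clones as lower, and after local centring, described below, 1 of the 18 tested did (Gbs-70E), against 1.32% of 4255 clones as lower and 1.41% in either direction. For the difference between the days no clone passed, neither a member nor any other (limma, 0 of 4563, 0%, with 479 at an unadjusted p under 0.05). On day 14 no clone passed either (0 of 4563, 880 at an unadjusted p under 0.05). A return toward the control level was therefore not shown by the test for any single transcript, and the set is named here by its rule.

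Arrays that took no part in a choice were then examined, which is the reading least tied to the rule. Each array was left out in turn, the rule was applied to the other 7 with at least 2 arrays on the shortened day, and the chosen clones were read on the array left out. With day-10 replicates 1 to 4 left out, 36, 49, 101 and 72 clones were chosen, and the medians on the unused array were -0.16, -0.10, 0.043 and -0.025. Below 0 there were 18 of 32, 24 of 38, 25 of 57 and 13 of 25 clones with a value. Over all clones considered the share below 0 on these arrays was 49.2%, 49.4%, 50.9% and 47.3%. Clones chosen without an array thus lay a little below the array median on unused replicates 1 and 2 and about at it on unused replicates 3 and 4.

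The same reading was made for day 14. Without replicates 1 to 4 of that day, 29, 31, 21 and 23 clones were chosen. On the unused array 5 of 17, 4 of 26, 11 of 20 and 12 of 20 of them lay at -0.1 or higher, against 54.7%, 54.6%, 69.8% and 62.4% of all clones considered. The medians were -0.33, -0.29, -0.009 and -0.024. On unused replicates 1 and 2, in which treated RNA carried Cy5, most chosen clones were thus still below the limit, and on replicates 3 and 4 they were near the array median. No test was made, since clones of 1 array are not replicates and share their print position and dye.

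**Figure D3:**
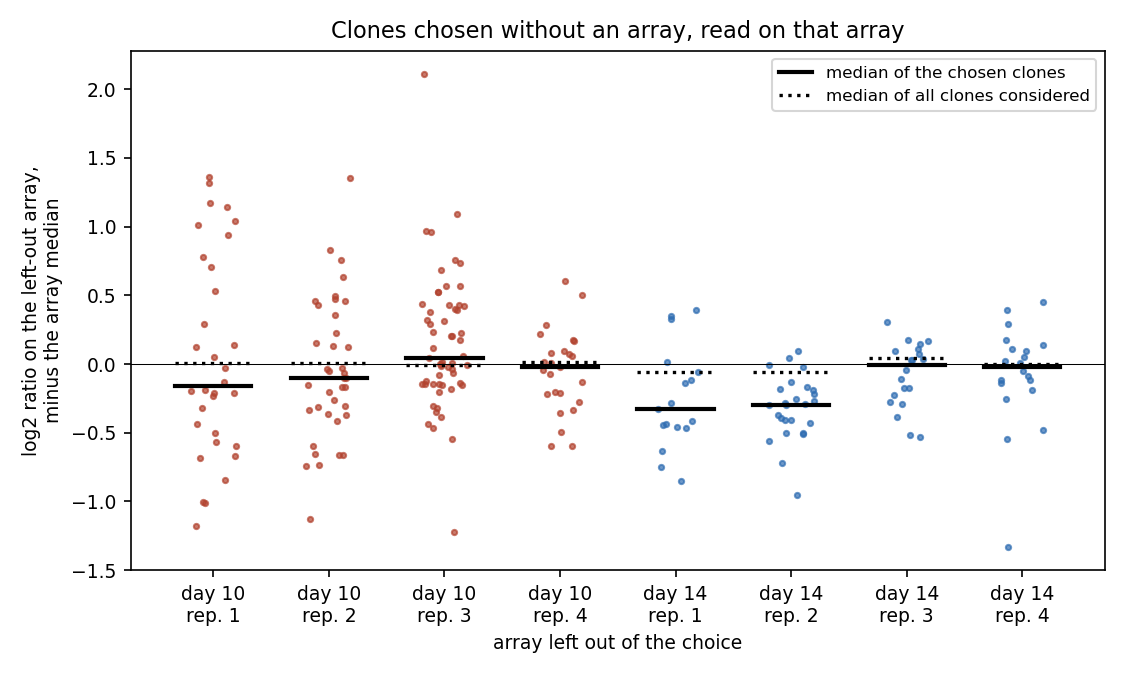
Log2 ratio minus the array median (vertical) of clones chosen by the rule without 1 array, read on that array (horizontal), red for day 10 and blue for day 14. Solid bars are medians of the chosen clones and dotted bars medians of all clones considered, and the solid bars run from -0.16 to 0.043 on day 10 and from -0.33 to -0.009 on day 14.

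Position on the slide moved with membership. The spots fall into 48 print blocks, inferred from their number and order. Blocks 33 to 48 held 15 of the 20 members (75%), 32.1% of the 2653 clones and 46.4% of the 97 clones that stayed below the day-14 limit. Blocks 1 to 16 held 2 members (10%), but 95 of the 101 clones of the mirrored rule (94.1%). They held 40.9% of the 2653 clones and 22.7% of the 97. Over all clones of blocks 33 to 48, the median was -0.15, -0.22, 0.049 and -0.035 on day-10 replicates 1 to 4, and 0.010, -0.18, 0.12 and 0.12 on day-14 replicates 1 to 4. In blocks 1 to 16 it was 0.24, 0.22, -0.031 and 0.033 on day 10, and -0.15, 0.002, -0.027 and -0.11 on day 14. The offset of blocks 33 to 48 was thus downward on day-10 replicates 1 and 2 and on day-14 replicate 2, and upward on day-14 replicates 3 and 4. Array-median centring leaves these offsets in the values.

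**Figure D4:**
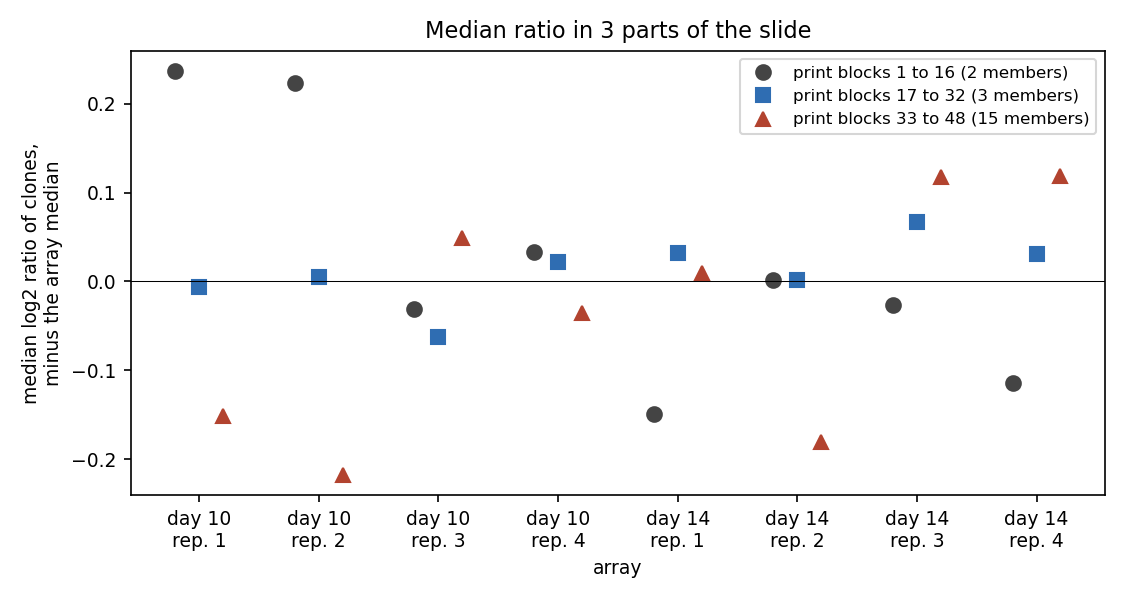
Median log2 ratio of treated over control heads minus the array median (vertical) over the clones of 3 parts of the slide on each array (horizontal). The part with 15 members (triangles) lies lowest on day-10 replicates 1, 2 and 4 and day-14 replicate 2 (-0.15, -0.22, -0.035 and -0.18), and highest on day-10 replicate 3 (0.049) and day-14 replicates 3 and 4 (0.12 each).

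Values centred within the slide were read next. With the median of each print block subtracted, 6 of the 20 members still met the whole rule, namely Alg7, alpha-Est8, CG15120, Lip4, Gbs-70E and CG10962. Local centring subtracts the median of the nearest clones in the block. With it all 20 kept a day-10 mean below 0, but the rule chose them for low values on these same arrays. Nothing is read from that count. Of the 20, 9 lay at -0.4 or lower after local centring, and 8 met the whole rule. These were Alg7, prd1, alpha-Est8, Ptp36E, CG15120, pyx, Lip4 and Gbs-70E. The local day-10 mean of Alg7 was -0.98, that of alpha-Est8 -0.55 and that of Gbs-70E -0.53. Those of sima, CG32652, Boot and svp were the smallest, between -0.23 and -0.17. After local centring 4 members had a day-14 mean below -0.1, namely Had1, svp, CG3246 and CG5323. As deposited, 16 of the 20 met the rule. Alg7, alpha-Est8 and Gbs-70E were the only members to meet it with array-median, print-block and local centring and as deposited. All these settings use the arrays that chose the members, so nothing is read from these counts of members either. Members and other clones together, the rule chose 30 clones with print-block centring, 22 with local centring and 200 as deposited.

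**Figure D5:**
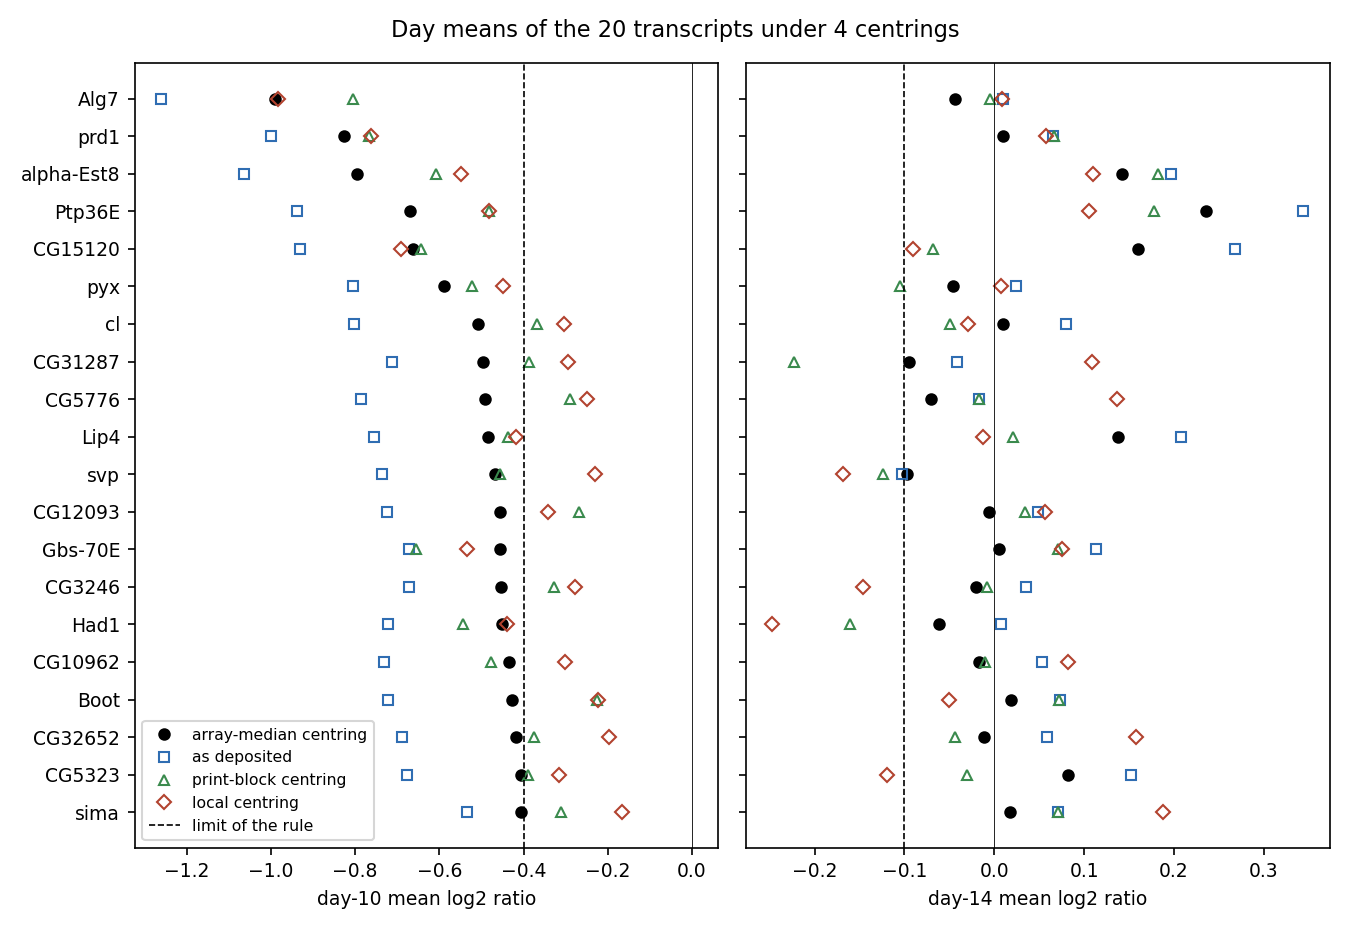
Day-10 (left) and day-14 (right) mean log2 ratio of treated over control heads for the 20 members under 4 centrings, with the limits of the rule as dashed lines. As deposited, all 20 day-10 means are lower than after array-median centring, and local centring leaves 9 members at -0.4 or lower.

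Further clones of the same genes were read on the same arrays. The rule was applied to them as well, and any that met it would have been a member, so their values are a description. Of 9 other clones for 7 member genes, 5 had values on 3 or more arrays of each day. Among those with fewer, an alpha-Est8 clone read 0.15 on day-10 replicate 2, its only value, where the member clone read -0.66. A CG10962 clone and an svp clone had day-10 means of 0.082 and 0.22 (n = 3 each). Their only day-14 values were -0.349 and -0.155. A further svp clone read -1.25 on day-10 replicate 2 alone. A second clone of Gbs-70E lay at -0.28, -0.47, -0.49 and -0.50 on day 10 and 0.13, -0.41, -0.096 and -0.28 on day 14. Its means were -0.43 ± 0.10 and -0.16 ± 0.23 (n = 4 each), so the day-10 value was near that of the member clone and the day-14 value was lower. A second clone of CG31287 lay at -0.60, -0.57 and -0.53 on day-10 replicates 1, 3 and 4. On day-14 replicates 1 to 4 it lay at -1.57, -0.34, -0.42 and -0.14. Its means were -0.57 (n = 3) and -0.62 (n = 4), and replicate 1 lowered the day-14 mean most. The member clone had a day-14 mean of -0.095. Second clones of CG3246 and svp had -0.26 and -0.30 on day 10 and -0.19 and -0.32 on day 14, with little difference between the days. A second clone of cl had 0.075 ± 0.034 on day 10 and 0.37 ± 0.087 on day 14 (n = 3 each), above the member clone on both days.

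The members were set against 24 gene lists of head cell types and metabolic pathways. Only 4 of the 20 were on a list, and 19 lists held no member. The counts of lower and higher clones that follow are of clones that passed limma on day 10 after array-median centring. Over all clones 2.19% were lower and 0.833% higher. Of 18 clones of the secretory pathway and endoplasmic reticulum, 1 was lower (Alg7) and 0 were higher, with a list median of -0.090 on day 10 and -0.052 on day 14. The glycosyltransferase genes Alg11 and Alg2, which follow Alg7 in the same pathway, had 0.25 ± 0.19 (n = 4) and 0.077 ± 0.28 (n = 3) on day 10. Of 9 clones of esterases, UDP-glycosyltransferases and related enzymes, 1 was lower (alpha-Est8) and 0 were higher, and the medians were -0.043 and 0.045.

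Lip4 stood on the fat body and the lipid metabolism lists. Of 14 fat body clones 5 were lower and 0 higher, with medians of -0.60 on day 10 and -0.25 on day 14. Their lowest day-10 mean was that of sxe2, a lipase-family gene, at -1.13 ± 0.084 (n = 3), which still had -0.48 ± 0.31 (n = 4) on day 14. Of 19 lipid metabolism clones 2 were lower and 0 higher, with medians of -0.25 and -0.17. Of 12 glial clones, among them the member clone and a second clone of svp with enough values on both days, 1 was lower (Tret1-1) and 0 higher, with medians of -0.25 and -0.10. Sugar metabolism had 4 of 19 clones lower, 0 higher and no member, with medians of -0.28 and -0.17. The lists also took in genes that the rule left out, and Obp99b and an apolpp clone were among the 5 lower fat body clones. Over the 2653 clones, which do not hold those genes, the medians were 0.012 and -0.009.

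Lists of neuronal, photoreceptor, muscle, blood cell and cuticle genes held no member and no clone that passed on day 10, over 10, 14, 11, 2 and 8 clones. Their day-10 medians were 0.11, 0.020, 0.022, -0.043 and 0.098. On the remaining lists, 1 of 6 antimicrobial and immune clones and 1 of 6 midgut clones were lower, while 1 of 14 vacuolar ATPase, lysosome and endosome clones and 2 of 18 transcription and RNA processing clones were higher. In the order of genes on the chromosomes, 38 genes lie next to the 19 members that could be placed, and 5 of the 38 had enough values. None of these 5 was a member, and 1 had a day-10 mean of -0.4 or lower, namely CG16926 beside CG15120, at -1.29 on day 10 and -0.70 on day 14.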

How the data were processed

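Ratios of 2 channels were measured on 8 cDNA arrays of fly heads. Per the labels' protocols and the submitters' design text, slides were scanned on a GenePix 4000A, quantified with GenePix Pro 6.0 and ratio-normalized by the authors in Acuity 4.0. Spots of raw intensity under 100 units and under 2 times the background were ignored in that step. A kept spot needed fewer than 3% of its pixels saturated, an R2 between channels of 0.6 or more and an SNR of 3 or more. The authors deposited 1 ratio per spot, read here as log2 from its range. Intensities were not used here, so the signal over background is unknown beyond these filters, and the number of arrays limits the precision.

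Both spots of a clone were averaged, replicates 3 and 4 turned and array medians subtracted. Clones on 3 or more arrays of each day were fitted with limma 3.58.1 in R 4.3.3, with a coefficient per day and a dye term, with Benjamini-Hochberg adjustment of the p-values. The fit was tested on simulated data with independent errors and no offset by slide position. The simulated decrease was larger than the day-10 decrease of the members. That test thus does not cover the offsets or the smaller decreases described here. Replicates are biological per the design text. Gene symbols came from the platform annotation, updated through the RefSeq table of the Release 6 assembly for 7447 of 7558 clones with 1 gene and for 19 of the 20 members. CG32652 kept the older symbol. The labels name no genome build, so no coordinates are given. Sequences were not analysed here, so the planned search of promoter words was not made.

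Local centring subtracted the median of at least 5 neighbours within 2 rows and 3 clones. Members were named if they had one of the 15 lowest day-10 means, 10 largest differences between days or 5 highest day-14 means, were on a list, had another measured clone or lay next to a limit, and the remaining members were added so that all 20 are given. Relatives of members in a gene family were chosen after the values were seen. The members, the lists and the tests were chosen with earlier results of these data known.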

Additional observations from a re-analysis of the deposited data

Results flagged for a closer look

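For Ptp36E every day-10 array lay below 0 and every day-14 array above it, with a day-14 mean of 0.236 ± 0.14 (SD, n = 3). This opposite movement is what marked it, the rule fixes the sign on day 10, and the difference between the days did not pass for any clone in the fit across the array. Among 13 sets of 4 arrays of 1 member and 1 day, no array stood far from the other 3 by Dixon's criterion. Chance alone passes it in about 1 of 20 sets. Sets of 3 arrays were not tested. Among them were the widest sets of each day, prd1 on day 10 (SD 0.84) and CG15120 on day 14 (SD 0.73).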

How the results depend on the processing

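The number of clones meeting the rule was 20 after array-median centring, 200 as deposited, where the median clone lay at -0.22 on day 10, and 2 when values on all 4 arrays of each day were required (both members). It was 30 with print-block and 22 with local centring, of which 6 and 8 were members. Under the other reading of the ratio's direction, with no array turned here, it was 24, none of them a member, and the 20 members had a day-10 median of -0.21. Leaving out 1 array gave 21 to 101 clones, of which 13 to 18 were members. Leaving out day-10 replicates 1 to 4 gave 36, 49, 101 and 72, and leaving out day-14 replicate 2 gave 31. With 1 array left out, the median of the 20 members lay between -0.52 and -0.44 on day 10. On day 14 it lay between -0.034 and 0.052. The members were chosen with all 8 arrays, so these narrow ranges follow largely from the rule and nothing is read from them. All clones passing on day 10 numbered 138 after array-median centring, 638 as deposited, 60 with local centring, 1 with no array turned and 57 with no dye term, and 3 to 143 with 1 array left out. That count fell to 3 on leaving out day-10 replicate 1, to 58, 90 and 57 for the other day-10 replicates in order, and to 55 for either of day-14 replicates 3 and 4. No clone passed on day 14 or for the difference between the days as deposited, with local centring, with no array turned, with no dye term, with 4 arrays required or with 1 array left out, and print-block centring was not fitted. With the replicate number as a block the difference gave 0 clones (363 at an unadjusted p under 0.05, limma). The numbers were not taken to pair the arrays. Deviations from the day means correlated at 0.061, 0.212, 0.12 and 0.232 for replicates 1 to 4 across days. Such correlations were positive for every pair of arrays with the same treated dye and negative for every other pair. Day-10 replicate 1 was closer to day-14 replicate 2, and day-10 replicate 3 to day-14 replicate 4. After the dye term the values for equal numbers were -0.344, -0.125, -0.534 and -0.243. Where a result changed with a setting, the cause was not tested.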
